A study of Homo sapiens with 4 samples.

Results

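The genes described here encode enzymes and subunits that remodel chromatin or modify histones, and their transcripts were measured in LS180, a long-established line of human colon carcinoma cells. They were chosen by name from the annotation of the Affymetrix HG-U95Av2 array: SMARC, HDAC, KDM, KMT, CHD and CBX genes, save the exceptions the rule states, together with named Polycomb, NuRD and acetyltransferase genes, ARID1A and DNMT1. The rule found 60 genes, read by 84 probe sets, among 8225 genes with a symbol on the array. Of these, 38 reached a log2 value of 5 on at least 1 array, a floor below which readings were not used, and 22 stayed under it on all 4 arrays. For comparison, 3588 of the 8225 genes reached the floor.

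There were 4 groups with 1 array each: polysomal RNA of RBM35A+ cells, polysomal RNA of RBM35A− cells, total RNA of RBM35A+ cells and total RNA of RBM35A− cells. RBM35A, now named ESRP1, is a splicing regulator that binds RNA and is typical of epithelia. RBM35A+ cells carried a Tet-off RBM35A construct and had gone at least 6 days without doxycycline, so that RBM35A was expressed. RBM35A− cells were kept in doxycycline; they are described as parental, and whether they carried the construct is not stated. Doxycycline therefore changed together with RBM35A in both fractions, and their parts cannot be told apart. Polysomal RNA is the RNA of transcripts that carry several ribosomes, collected from sucrose gradients after cycloheximide treatment and removal of nuclei, while total RNA was extracted from whole cells with TRIZOL. RNA fraction thus changed together with the extraction, and the polysomal samples alone are labelled as polyA RNA. The study asked how RBM35A alters total and polysomal mRNA.

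Chromatin is DNA wound around histone proteins. Remodellers such as SWI/SNF, ISWI and the CHD proteins use ATP to move or evict nucleosomes. Acetyltransferases, deacetylases, methyltransferases and demethylases write and erase chemical marks on histone tails. Polycomb complexes hold genes silent through such marks, and heterochromatin protein 1 (HP1) reads a methyl mark of compacted chromatin.

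No replicate arrays exist for any group, so differences are given with no p-value and no test was run. Each difference is on the log2 scale. Measurement error was judged by how far probe sets of 1 gene differed among themselves. Expressed as an SD for 1 probe set, it was 0.21 for RBM35A+ minus RBM35A− in total RNA and 0.19 in polysomal RNA. For polysomal minus total RNA it was 0.84 in RBM35A+ cells and 0.81 in RBM35A− cells. These SDs do not cover the spread between cultures. The array held 0 probe sets for RBM35A itself, so the state of each culture is known from its label only. Of 14 colon epithelial markers, 12 reached the floor, KRT20 and GUCY2C being the exceptions. Of 8 haematopoietic markers on the array 1 did (HBB), and of 7 fibroblast and endothelial markers 1 did (COL1A1). Controls for beta-actin and GAPDH that lie at the 5′ ends of the transcripts read lower in polysomal than in total RNA, with differences of −5.32 and −2.59 in RBM35A+ cells and of −4.51 and −1.83 in RBM35A− cells. At the 3′ ends these differences lay between −0.30 and −0.14. Between the polysomal arrays, RBM35A+ minus RBM35A− was −0.86 and −0.79 at the 5′ ends and −0.02 and −0.13 at the 3′ ends.

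Transcripts of chromatin genes spanned a wide range of levels in these cells. Probe sets differ in their response, so levels are given as readings and not ranked between genes. HDAC1, a class I histone deacetylase of several corepressor complexes, read 11.37 in polysomal RNA of RBM35A+ cells, 11.22 in polysomal RNA of RBM35A− cells, 11.59 in total RNA of RBM35A+ cells and 11.40 in total RNA of RBM35A− cells. The 4 readings lay within 0.4 of one another. CHD4, the ATPase of the NuRD remodelling and deacetylase complex, read 11.28 and 11.26 in polysomal RNA of RBM35A+ and RBM35A− cells, against 10.07 and 9.91 in total RNA. SMARCD2, a SWI/SNF subunit, read 10.46 and 10.38 in polysomal RNA of RBM35A+ and RBM35A− cells, against 10.51 and 10.44 in total RNA. CHD4 was thus higher on both polysomal arrays than on both total RNA arrays, whereas the ranges of SMARCD2 overlapped.

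Of the 38 genes, 30 lay above the floor on all 4 arrays and 8 on some. The 36 genes above the floor on the polysomal RBM35A+ array compared with 37 on the polysomal RBM35A− array, 32 on the total RNA RBM35A+ array and 31 on the total RNA RBM35A− array. Measured groups included 7 of 9 SWI/SNF subunits, 7 of 8 Polycomb genes, 5 of 7 deacetylases, 7 of 14 demethylases and 3 of 3 HP1 genes. Of the ISWI and CHD remodellers other than CHD3 and CHD4, 3 of 8 were measured. The acetyltransferases EP300 and CREBBP, the SWI/SNF subunits ARID1A and SMARCD1, the methyltransferases KMT2A and KMT2D and the histone-binding protein RBBP7 were among the 22 genes under the floor, whose highest reading was 4.76. For 15 of these 22, all 4 readings were under 3, near the lowest values of the arrays.

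**Figure D1:**
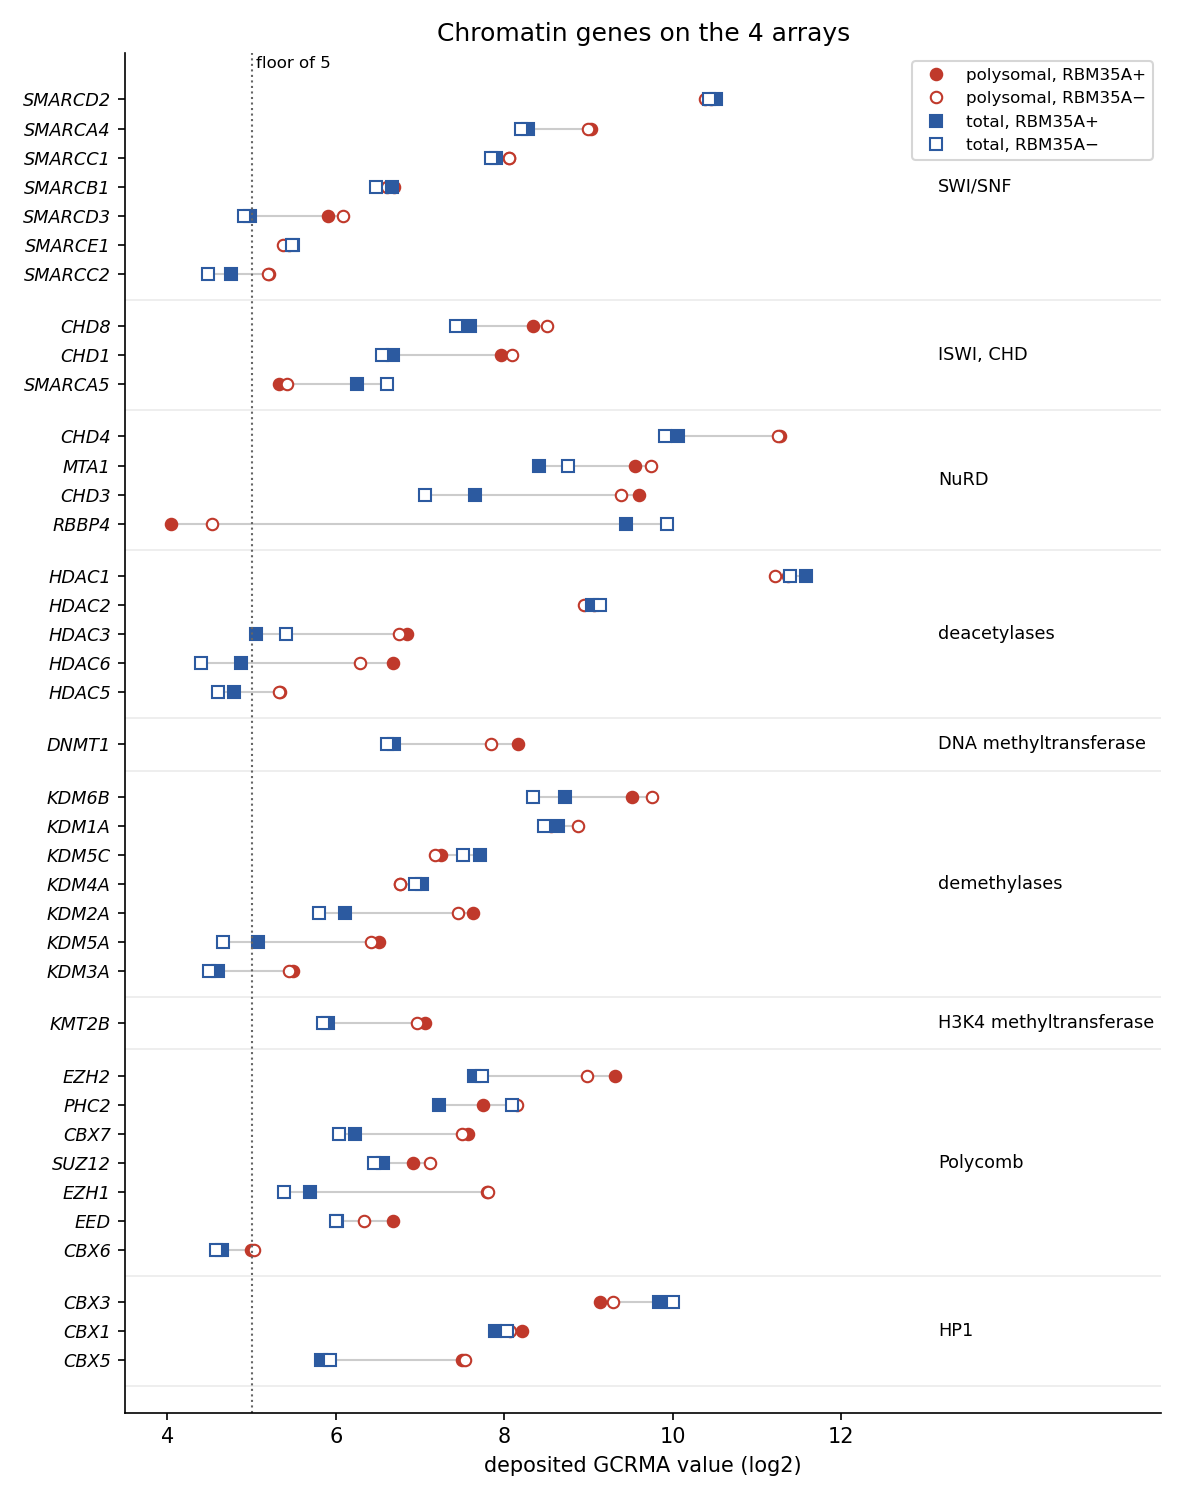
Deposited log2 values (horizontal axis) of the 38 chromatin genes that reached the floor of 5 on at least 1 array, grouped by role; filled and open circles are polysomal RNA of RBM35A+ and RBM35A− cells, filled and open squares total RNA of RBM35A+ and RBM35A− cells. Circles lie to the right of squares for genes such as CHD4, CHD3 and EZH1, while RBBP4 has both circles under the floor and both squares above 9.

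In total RNA, few chromatin transcripts differed between RBM35A+ and RBM35A− cells. PHC2 fell by 0.87 and CHD3 was higher by 0.60, and these were the members that passed 1.5-fold (0.58 on the log2 scale). The count was 1 of 32 genes higher and 1 of 32 lower, against 1.54% of 3320 genes higher and 0.663% lower. With so few members past the fold, these shares say little beyond naming the genes. In RNA of whole cultures, fewer cells with a transcript and less of it per cell cannot be told apart.

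PHC2 encodes a Polyhomeotic protein, a subunit of the Polycomb complex that compacts chromatin and ubiquitinates histone H2A. It read 7.75 in RBM35A+ cells against 8.15 in RBM35A− cells in polysomal RNA, and 7.22 against 8.09 in total RNA. The gene was lower in RBM35A+ cells in both fractions, by 1.83-fold in total RNA and 1.32-fold in polysomal RNA, and both differences were more than the SD of 1 probe set. Among all genes with a value it had the lowest but 1 difference in total RNA (rank 2 of 3320) and rank 132 of 3391 from the bottom in polysomal RNA. It had 1 probe set, so no other reading of the transcript was at hand.

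CHD3, an ATPase that can replace CHD4 in NuRD, read 9.60 in RBM35A+ cells against 9.39 in RBM35A− cells in polysomal RNA, and 7.66 against 7.06 in total RNA. The total RNA difference of 0.60, or 1.51-fold, lay just past the fold used, and the polysomal difference of 0.20 was close to the SD of 1 probe set. Both pointed the same way. CHD4 differed by 0.02 in polysomal and 0.16 in total RNA, less than 1 SD in each.

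KDM6B, which removes repressive methyl groups from histone H3, read 9.52 in RBM35A+ cells against 9.75 in RBM35A− cells in polysomal RNA, and 8.72 against 8.35 in total RNA. The differences were −0.24 and 0.37, opposite in sign, and the polysomal difference minus the total RNA difference was −0.61. It was the member past 1.5-fold in that quantity, 1 of 31 genes, against 2.40% of 3123 genes, while 0 members lay past it on the higher side, against 1.02%. The SD of 1 probe set for this quantity was 0.24. The identifier of its probe set marks it as having fewer unique probes than the array design's standard, and its other probe set lay under the floor.

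The 250 bases before the annotated start of these 3 genes are shown. PHC2 and CHD3 passed 1.5-fold in an RBM35A difference, and KDM6B in the polysomal minus the total RNA difference. They come from RefSeq on GRCh38.p14, written 5′ to 3′ along the gene's strand, PHC2 at chr1:33431096-33431345 (minus strand), CHD3 at chr17:7888539-7888788 (plus strand) and KDM6B at chr17:7833967-7834216 (plus strand). Capitals mark matches on either strand. The letters searched were GGGCGG for the GC box, a site of the Sp factors, and CCAAT for the box of that name, which NF-Y binds. They were TATAAA for the TATA box and, for the E-box that MYC and related factors bind, CACGTG.
PHC2: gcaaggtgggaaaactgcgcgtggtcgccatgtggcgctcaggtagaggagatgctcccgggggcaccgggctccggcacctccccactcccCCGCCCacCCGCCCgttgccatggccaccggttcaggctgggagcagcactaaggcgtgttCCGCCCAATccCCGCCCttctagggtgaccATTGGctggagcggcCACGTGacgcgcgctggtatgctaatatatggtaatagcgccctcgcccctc
CHD3: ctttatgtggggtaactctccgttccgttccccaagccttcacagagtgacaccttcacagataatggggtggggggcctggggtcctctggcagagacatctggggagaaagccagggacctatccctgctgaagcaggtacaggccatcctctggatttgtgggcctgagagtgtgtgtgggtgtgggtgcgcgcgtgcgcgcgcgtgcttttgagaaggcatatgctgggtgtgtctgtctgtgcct
KDM6B: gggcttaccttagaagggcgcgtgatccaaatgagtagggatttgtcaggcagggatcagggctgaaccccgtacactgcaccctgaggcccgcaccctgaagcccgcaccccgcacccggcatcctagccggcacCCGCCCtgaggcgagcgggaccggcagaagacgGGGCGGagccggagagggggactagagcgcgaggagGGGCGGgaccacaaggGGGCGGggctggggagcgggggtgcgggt

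The windows were unlike one another. PHC2 had 4 GC boxes, 2 CCAAT boxes, of which 1 overlaps a GC box, and 1 E-box, with 66.8% G and C. KDM6B had 4 GC boxes and none of the others (0), with 70.4% G and C. CHD3 held 0 of the 4 motifs in this window, which was 58.8% G and C. Of the 55 chromatin genes of the 60 with a window in the table, 65.5% held a GC box, 36.4% a CCAAT box, 16.4% an E-box and 0 a TATA box. Among all 27303 promoter windows the shares were 42.3%, 33.0%, 6.49% and 11.1%, and among 3031 genes that reached the floor they were 71.0%, 36.7%, 9.47% and 5.34%. Among the 35 chromatin genes with a window that reached the floor, the shares were 68.6%, 42.9%, 11.4% and 0. These are matches of letters and not sites of binding.

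The remaining chromatin genes differed by less in total RNA. Of 32 genes, 22 were above 0 and 10 below, where 50.3% of all genes were above 0, with a median of 0.08 against 0.0021 over all genes, and 23 differed by less than 1 SD of a probe set. All 6 demethylases with a value lay above 0 in total RNA, between 0.07 and 0.37, and all 5 SWI/SNF subunits did, between 0.01 and 0.20. KDM5A, the lowest of the demethylases, was under the floor in RBM35A− cells (4.66). This fixed its sign, here and among the 22, and its 0.07 is a minimum. All 3 HP1 genes lay below 0, between −0.16 and −0.11. None of these 14 genes passed 1.5-fold, and the values of SWI/SNF subunits and HP1 genes were under 1 SD each.

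After PHC2, the members lowest in total RNA were RBBP4 and HDAC3. RBBP4, a histone-binding chaperone shared by NuRD and the Polycomb methyltransferase complex, read 9.45 in total RNA of RBM35A+ cells against 9.94 in RBM35A− cells, a difference of −0.49. Its polysomal readings were under the floor in both states (4.04 in RBM35A+ and 4.52 in RBM35A− cells). HDAC3, the catalytic deacetylase of the NCoR and SMRT corepressor complexes, read 6.85 in RBM35A+ cells against 6.75 in RBM35A− cells in polysomal RNA, and 5.05 against 5.41 in total RNA. Its total RNA difference was −0.36, close to the floor, and its polysomal difference 0.09. After CHD3 the members highest in total RNA were KDM6B and EZH1. EZH1, a Polycomb methyltransferase of resting cells, read 7.79 in RBM35A+ cells against 7.81 in RBM35A− cells in polysomal RNA, and 5.70 against 5.38 in total RNA, a total RNA difference of 0.32.

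In polysomal RNA, 0 of 37 chromatin genes were 1.5-fold higher and 0 of 37 were 1.5-fold lower in RBM35A+ than in RBM35A− cells, against 0.767% of 3391 genes higher and 1.3% lower. Of the 37, 24 were above 0 and 13 below, the median was 0.04 against 0.02 over all genes, and 28 differed by less than 1 SD of a probe set. CBX6, among the 13, reached the floor on the RBM35A− array alone, which fixed its sign. Values of the 37 ran from −0.40 for PHC2 to 0.39 for HDAC6, a mostly cytoplasmic deacetylase of tubulin. HDAC6 read 6.68 in polysomal RNA of RBM35A+ cells against 6.29 in RBM35A− cells, and lay under the floor in total RNA (4.87 in RBM35A+ and 4.40 in RBM35A− cells). The 5 deacetylases lay between 0.01 and 0.39 in polysomal RNA, where 56.4% of all genes were above 0, but with the mean of its probe sets HDAC1 turned to −0.07.

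Genes of the Polycomb methyltransferase complex were not alike in polysomal RNA. EED, the subunit that reads the complex's own mark, read 6.68 in polysomal RNA of RBM35A+ cells against 6.34 in RBM35A− cells, and 6.01 in total RNA of both. EZH2, the catalytic subunit in dividing cells, read 9.31 in RBM35A+ cells against 8.99 in RBM35A− cells in polysomal RNA, and 7.64 against 7.74 in total RNA. Both were higher on the polysomal RBM35A+ array, EED by 0.34 and EZH2 by 0.33. SUZ12, a further core subunit, differed the other way, by −0.19. DNMT1, which copies DNA methylation after replication, read 8.16 in RBM35A+ cells against 7.84 in RBM35A− cells in polysomal RNA, and 6.69 against 6.61 in total RNA.

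The lowest polysomal values after PHC2 were those of KDM1A and KDM6B. KDM1A (LSD1), an amine oxidase that demethylates histone H3, read 8.55 in RBM35A+ cells against 8.88 in RBM35A− cells in polysomal RNA, and 8.64 against 8.47 in total RNA. Its polysomal difference was −0.33 and its total RNA difference 0.17. The polysomal minus the total RNA difference was −0.50, short of 1.5-fold. On the other side stood PHC2 (0.47), HDAC3 (0.46) and EZH2 (0.42), whose polysomal difference exceeded that in total RNA. For PHC2 this means a smaller deficit in polysomal than in total RNA. Over the 31 genes with both values, 16 were above 0 in both fractions, 5 below 0 in both, 6 above 0 in total RNA alone and 4 above 0 in polysomal RNA alone. KDM5A is among the 16, its sign in total RNA fixed by the floor. The sign was the same in both fractions for 67.7% of the 31 genes, against 59.2% of all 3123 genes. The differences in the 2 fractions correlated at r = 0.31 across the 31 genes and at r = 0.29 across all 3123 genes. Genes are not independent replicates, and the points of each axis share the same pair of arrays.

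**Figure D2:**
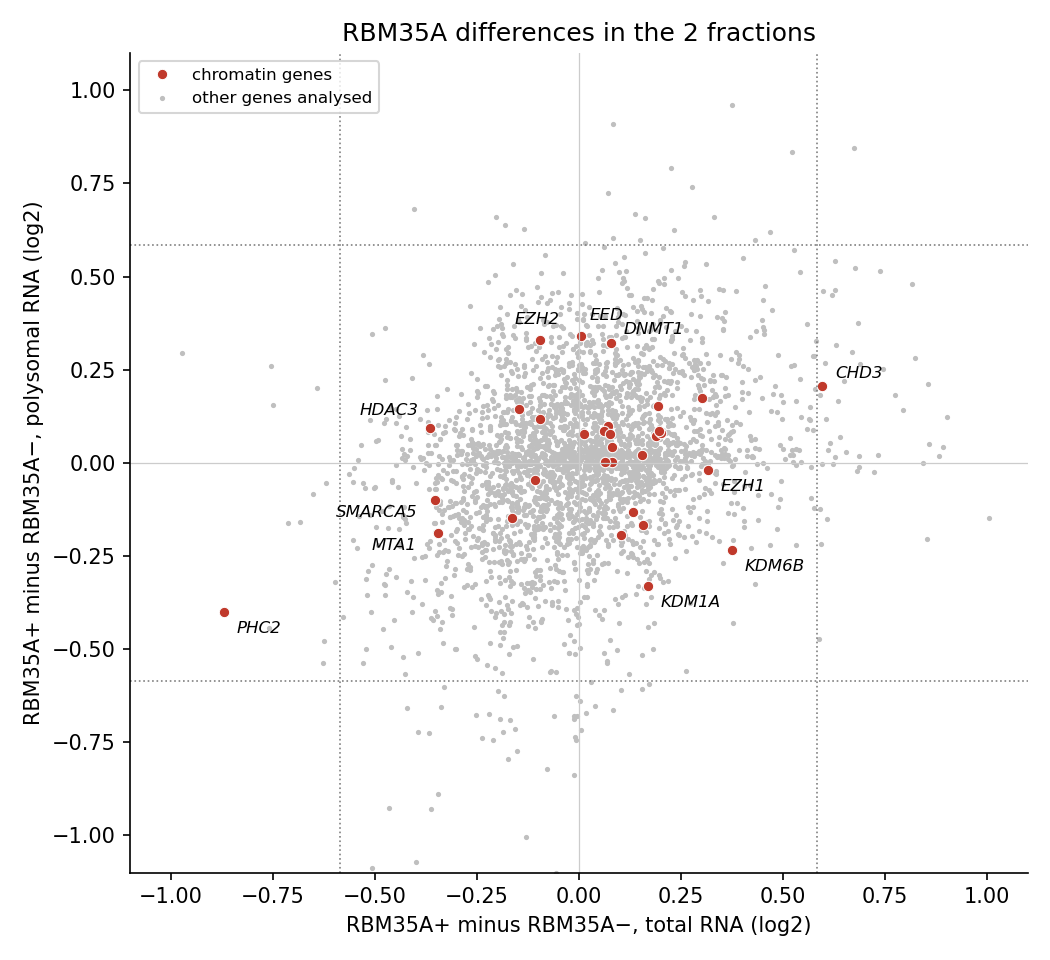
RBM35A+ minus RBM35A− (log2) in total RNA (horizontal axis) and polysomal RNA (vertical axis) for the 31 chromatin genes with both values (red) among the 3123 genes with both values (grey); dotted lines mark 1.5-fold, and 6 genes lie outside the axes. PHC2 lies past the line on the left at −0.87 and CHD3 on the right at 0.60, while the other chromatin genes lie inside all 4 lines.

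Many chromatin transcripts read higher in polysomal than in total RNA. In RBM35A+ cells 14 of 37 genes (37.8%) were at least 2-fold higher in polysomal RNA, against 14.4% of 3537 genes, and in RBM35A− cells 16 of 38 (42.1%) were, against 14% of 3541 genes. At least 2-fold lower were 1 of 37 in RBM35A+ cells, against 8.06% of all genes, and 2 of 38 in RBM35A− cells, against 8.02%. The median member differed by 0.67 in RBM35A+ cells and 0.55 in RBM35A− cells, against 0.10 in each state over all genes. Some members had a value through polysomal RNA alone, their total RNA readings being under the floor, and their sign was fixed by that. In RBM35A+ cells these were HDAC5, HDAC6, KDM3A, SMARCC2 and SMARCD3, of which 1, HDAC6, was among those 2-fold higher. In RBM35A− cells CBX6 and KDM5A joined them, and 3 of the 7 were 2-fold higher (HDAC6, KDM5A and SMARCD3). With both fractions above the floor, 13 of 31 members were 2-fold higher in RBM35A+ cells, against 13.8% of 3065 genes, and 13 of 30 in RBM35A− cells, against 13.3% of 3060 genes. Over all values, the lists of members 2-fold higher overlapped in 13 genes, which are 92.9% of the 14 and 81.2% of the 16. The lists of all genes overlapped widely too, with 415 genes in both, of 508 in RBM35A+ and 495 in RBM35A− cells. Of 3 long noncoding RNAs listed as retained in nuclei, the array held 1, TUG1. It was higher in polysomal RNA too, by 1.48 in RBM35A+ and 1.28 in RBM35A− cells. Whether TUG1 lay in the nuclei of these cells was not measured. The 12 measured colon epithelial markers had medians of −0.72 and −0.44. Their part in the result was not tested. The 2 fractions were normalized apart from each other, so each such difference is set across separately scaled arrays.

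The members had lower medians than all genes on the total RNA arrays and close ones on the polysomal arrays. This gap in level is thus not separate from the fraction difference. Among all genes, the share 2-fold higher in polysomal RNA varied with mean level, but not steadily. The median of the 38 members was 7.59 on the polysomal RBM35A+ array and 6.69 on the total RNA RBM35A+ array, against 7.61 and 7.41 over all 3588 genes. In RBM35A− cells it was 7.52 and 6.61, against 7.59 and 7.40. Divided into quartiles by mean level over the 4 arrays, the genes of the second lowest quartile (6.05 to 7.48) were at least 2-fold higher in polysomal RNA of RBM35A− cells in 20.8% of 897 cases, and 7 of 13 members in that quartile were. In the quartile above it the shares were 15.2% of 897 genes and 4 of 11 members. In the lowest quartile they were 10.8% of 850 genes and 4 of 10 members, and in the highest 8.92% of 897 genes and 1 of 4 members. Of the 10 members in the lowest quartile, 7 had total RNA readings under the floor in RBM35A− cells, which fixed their sign. HDAC6, KDM5A and SMARCD3, 3 of the 4 counted there, were among these 7. The part of mean level in the result was not tested.

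The 6 Polycomb genes with a value in both states read higher in polysomal than in total RNA in each, where 56.0% of all genes in RBM35A+ cells and 55.7% in RBM35A− cells lay above 0. CBX6 reached the floor on the polysomal RBM35A− array alone, which fixed its sign. EZH1 was 4.28-fold higher in polysomal than in total RNA of RBM35A+ cells and 5.39-fold higher in RBM35A− cells, and it was the member with the highest difference in each state. EZH2 was 3.18-fold and 2.37-fold higher in RBM35A+ and RBM35A− cells. CBX7, a Polycomb protein that binds the repressive methyl mark, read 7.56 and 7.49 in polysomal RNA of RBM35A+ and RBM35A− cells, against 6.23 and 6.04 in total RNA. SUZ12, EED and PHC2 stayed under 2-fold, with differences of 0.36, 0.67 and 0.53 in RBM35A+ cells and of 0.66, 0.33 and 0.06 in RBM35A− cells.

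Among the ATP-dependent remodellers, the measured CHD genes read higher in polysomal RNA, while the median of the SWI/SNF subunits lay nearer 0. CHD3 was 3.84-fold higher in polysomal than in total RNA of RBM35A+ cells and 5.04-fold higher in RBM35A− cells. CHD4 was higher by 1.21 and 1.34 in RBM35A+ and RBM35A− cells. CHD1, which binds methylated histone H3 at active genes, read 7.96 and 8.09 in polysomal RNA of RBM35A+ and RBM35A− cells, against 6.68 and 6.55 in total RNA. CHD8, a remodeller known to bind beta-catenin, read 8.34 and 8.51 against 7.59 and 7.43. Of 7 SWI/SNF subunits, 0 were 2-fold higher in RBM35A+ cells and 1, SMARCD3, was in RBM35A− cells (1.08, a lower bound). The SWI/SNF median was 0.15 in RBM35A+ cells and 0.19 in RBM35A− cells, and SMARCA4, the ATPase BRG1 of the complex, lay at 0.75 and 0.79. CHD8 was like SMARCA4 in RBM35A+ cells, at 0.75, and at 1.07 in RBM35A− cells. These values are those of the brightest probe sets, and other probe sets of SMARCD2 and SMARCC1 lay lower, as given below. No test set the CHD genes against the SWI/SNF subunits.

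Histone-modifying enzymes fell on both sides. KDM2A, which demethylates histone H3, read 7.62 and 7.45 in polysomal RNA of RBM35A+ and RBM35A− cells, against 6.11 and 5.81 in total RNA. KDM5A, a demethylase that binds the retinoblastoma protein, was at 1.44 in RBM35A+ cells and at 1.42 or more in RBM35A− cells. Its relative KDM5C lay on the other side, at −0.46 and −0.34. HDAC3 was 3.49-fold higher in polysomal than in total RNA of RBM35A+ cells and 2.54-fold higher in RBM35A− cells, and HDAC6 at least 3.21-fold and at least 2.45-fold. HDAC1 (−0.22 and −0.18) and HDAC2 (0.02 and −0.20), the paired deacetylases of NuRD, lay near 0. The HDAC1 values are those of its brightest probe set, and its other probe set lay lower, as given below. DNMT1 was higher by 1.47 and 1.23. KMT2B, which methylates histone H3 at promoters, read 7.05 and 6.97 in polysomal RNA against 5.91 and 5.84 in total RNA.

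A few members read lower in polysomal RNA. RBBP4 was at least 21.9-fold lower in RBM35A+ cells and at least 30.6-fold lower in RBM35A− cells. These bounds rest on the floor and on 1 probe set. With the mean of its probe sets the difference was −2.10 in RBM35A+ and −2.53 in RBM35A− cells. These are bounds too, because both probe sets lay under the floor in polysomal RNA. SMARCA5, the ATPase of the ISWI remodellers, read 5.32 and 5.42 in polysomal RNA of RBM35A+ and RBM35A− cells, against 6.25 and 6.60 in total RNA, and was lower by 1.90-fold and 2.27-fold. CBX3, an HP1 protein, read 9.14 and 9.29 against 9.84 and 10.00. Its other probe set differed by −0.02 in RBM35A+ and 0.05 in RBM35A− cells, so the deficit rests on 1 probe set. Of the other HP1 genes, CBX5 was higher in polysomal RNA by 1.67 and 1.61, and CBX1 by 0.33 and 0.04, in RBM35A+ and RBM35A− cells.

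**Figure D3:**
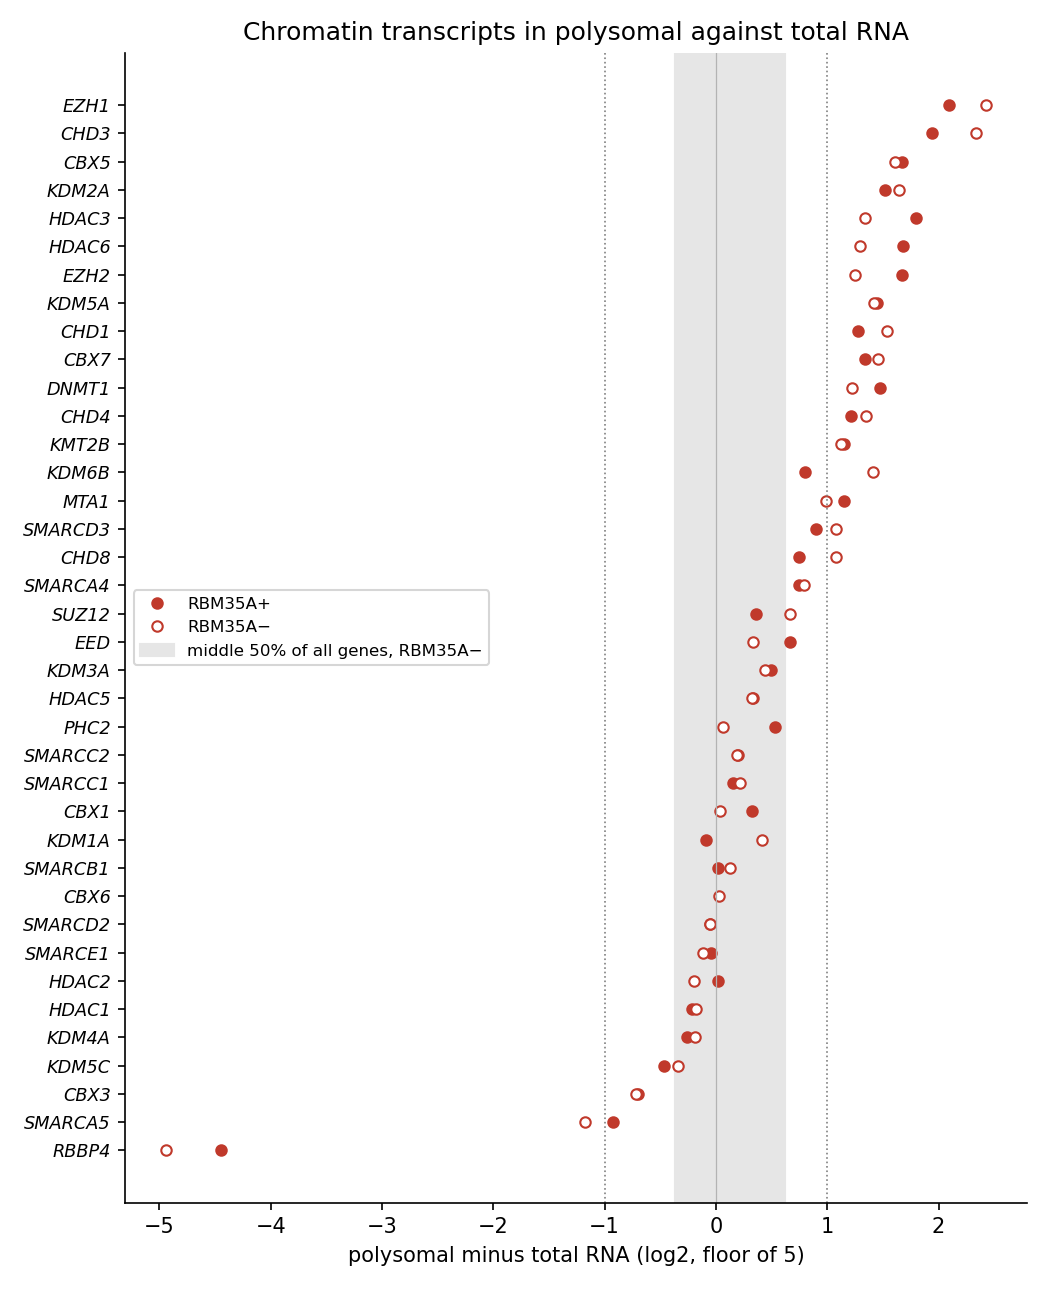
Polysomal minus total RNA (log2, values under 5 raised to 5) for the 38 chromatin genes, ordered by the mean of the 2 states; filled circles are RBM35A+ and open circles RBM35A− cells, dotted lines mark 2-fold and the grey band holds the middle 50% of all genes in RBM35A− cells. EZH1 and CHD3 lead, most genes lie right of 0, and RBBP4 stands alone at −4.45 in RBM35A+ and −4.94 in RBM35A− cells, both bounds.

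The fraction difference of a chromatin gene depended on the probe set that read it. In RBM35A+ cells 8 genes had at least 2 measured probe sets, and in 5 of them the probe sets disagreed by 1 or more in polysomal minus total RNA, against 35.3% of 476 genes. In RBM35A− cells 4 of 8 did, against 35.0% of 474 genes. The genes that follow were picked after their values were seen. The other probe set of HDAC1, whose identifier marks sequence shared between transcripts, read 7.60 and 7.90 in polysomal RNA of RBM35A+ and RBM35A− cells against 9.71 and 9.57 in total RNA, differences of −2.10 and −1.68 beside the −0.22 and −0.18 given above. A SMARCD2 probe set read 6.59 and 7.13 against 9.00 and 8.98, and another lay under the floor in polysomal RNA, against 6.94 and 6.91 in total RNA. In both genes the brightest probe set thus showed a fraction difference near 0 and the others a deficit.

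SMARCC1, a SWI/SNF scaffold subunit, showed the same split. Its brightest probe set read 8.06 in polysomal RNA of each state against 7.91 in RBM35A+ and 7.84 in RBM35A− cells in total RNA, while the other read 5.73 and 5.98 against 7.13 and 6.94. For RBBP4 the second probe set lay under the floor in polysomal RNA and read 4.75 and 5.12 in total RNA, so it could not check the large deficit. For CHD8 the second probe set went the other way, with a fraction difference of 1.99 in RBM35A+ and 1.63 in RBM35A− cells.

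Of 10 additional probe sets with a fraction difference in RBM35A+ cells, 5 lay at least 1 below the brightest probe set of their gene. The 4 of these 5 that were measured in polysomal RNA gave RBM35A differences of −0.77 (MTA1), −0.54 (SMARCD2), −0.29 (HDAC1) and −0.25 (SMARCC1), each below that of the brightest probe set (−0.19, 0.08, 0.15 and 0.0020). Both quantities contain the polysomal RBM35A+ array, so they are not separate evidence. The 5′ controls for beta-actin and GAPDH moved in the same direction in both quantities, as given above. Where along its transcript each probe set lies was not used here, and its part in these differences was not tested.

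MTA1, a NuRD scaffold protein, had the widest disagreement among the members in the RBM35A differences of its probe sets. A probe set of this gene read 6.42 in RBM35A+ cells against 7.19 in RBM35A− cells in polysomal RNA, and 7.28 against 6.82 in total RNA. The other measured probe sets gave −0.19 and −0.14 in polysomal RNA and −0.34 and −0.36 in total RNA. The first thus differed in sign from the other 2 in total RNA, and its polysomal minus total RNA difference of −1.23 lay apart from their 0.16 and 0.22.

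**Figure D4:**
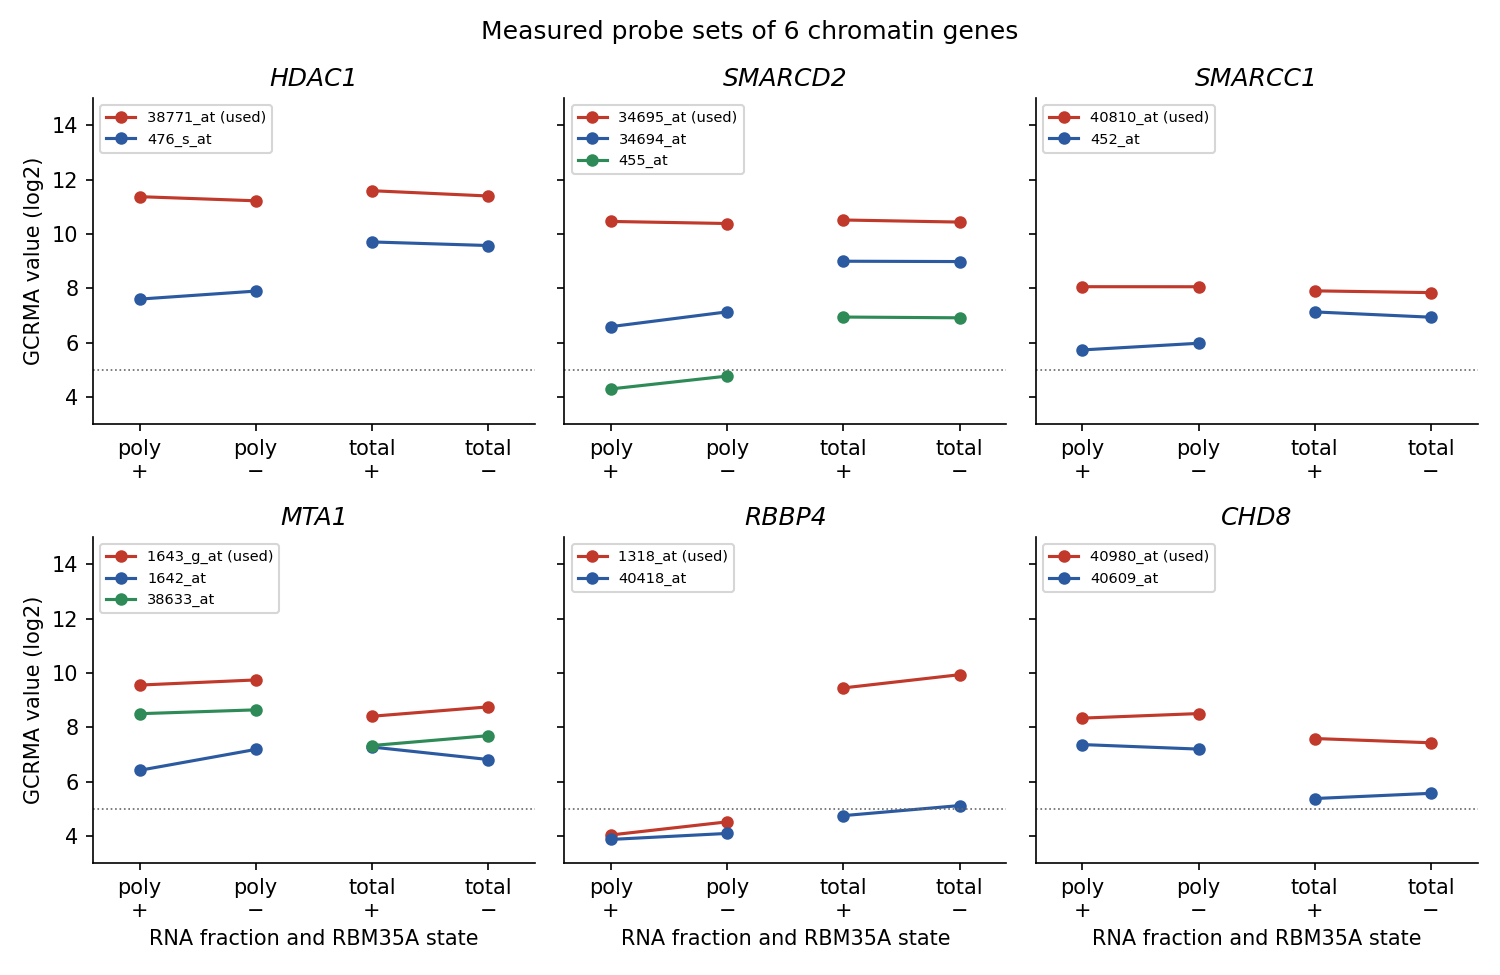
Deposited log2 values (vertical axis) of every probe set that reached the floor of 5 (dotted line) for 6 chromatin genes, on the polysomal arrays of RBM35A+ and RBM35A− cells (left pair) and the total RNA arrays (right pair); lines join the states within a fraction. For HDAC1, SMARCD2 and SMARCC1 the brightest probe set is level across fractions while the others drop in polysomal RNA, to 7.60 for HDAC1 in RBM35A+ cells.

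A wider list of 108 chromatin genes outside the naming rule, such as acetyltransferases, bromodomain proteins and further methyltransferases, had 71 genes on the array and 53 above the floor. In polysomal RNA 0 of 50 were 1.5-fold higher in RBM35A+ cells, against 0.767% of all genes, and 1 was lower, against 1.3%: BCL7B, a SWI/SNF-associated protein, at −0.72, with the RBM35A+ reading at the floor. In total RNA 3 of 47 were 1.5-fold higher, against 1.54% of all genes, and 0 lower, against 0.663%. With 1 and 3 genes past the fold, these shares again do little beyond naming the genes. SETD1A, a methyltransferase of histone H3, read 8.04 in RBM35A+ cells against 8.00 in RBM35A− cells in polysomal RNA, and 7.32 against 6.46 in total RNA. BPTF, a subunit of the NURF remodeller, was at 0.05 in polysomal and 0.62 in total RNA, and SETDB1, a methyltransferase of heterochromatin, at −0.12 and 0.59. At least 2-fold higher in polysomal than in total RNA were 14 of 51 genes in RBM35A+ cells, against 14.4% of all genes, and 14 of 52 in RBM35A− cells, against 14%. BRPF1 and SETD2 were counted in both states, and KAT6A and ATRX in RBM35A− cells, with total RNA at the floor. This fixed their sign. The medians of the list were 0.39 and 0.45, against 0.10 in each state over all genes. They too hold genes with a sign so fixed, such as KAT5 and NSD2.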

How the data were processed

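RNA of LS180 cells was hybridized, 10 µg per sample, to 4 Affymetrix HG-U95Av2 arrays. The authors deposited log2 values from GCRMA according to the submitters' processing notes; its version is not given in the sources used here. Sorted values differed by at most 4.29e-06 between the total RNA arrays and 6.61e-06 between the polysomal arrays, but by up to 0.227 between fractions, so each pair had been quantile normalized apart from the other. This step removes any shift shared by most genes of 1 array in a pair.

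Of 12626 probe sets, 10943 had 1 gene symbol in the array annotation, 546 had several and 1070 none, and 67 were controls. Symbols of 10934 were updated by gene ID from a RefSeq table of GRCh38.p14. Where a gene had several probe sets, that of highest mean stood for it. Values under 5 were raised to 5, and genes that reached 5 on any array were kept. A difference needed 1 value above 5, and where the other was raised it is only a minimum in size. Differences were taken within each fraction and within each state, and genes were counted at 1.5-fold for RBM35A and at 2-fold for fraction. The pooled SD within genes gave the error of 1 probe set. The number of arrays, 1 a group, limits the precision. Values on all arrays are given for members past 1.5-fold in an RBM35A difference or in the difference between fractions, for the 3 highest and 3 lowest members of each comparison and for the member of highest mean in each role. The members and lists were chosen with earlier results of these data known. Python 3.11.15, numpy 2.4.6 and pandas 2.3.3 were used, and the calculations were tested on simulated data. The 8 alternatives planned changed the floor, the filter, the probe set rule, the scaling and the symbols, and 1 added after seeing the data kept genes by their mean.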

Additional observations from a re-analysis of the deposited data

Results flagged for a closer look

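KDM6B differed in opposite directions in the 2 fractions: RBM35A+ minus RBM35A− was −0.24 in polysomal and 0.37 in total RNA, a polysomal minus total difference of −0.61. With 1 array a group, this difference was not tested. The reading rests on 1 probe set, marked as having fewer unique probes than standard.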

How the results depend on the processing

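PHC2 was lower (−0.88 to −0.86) and CHD3 higher (0.59 to 0.60) by 1.5-fold in total RNA under all 8 alternatives planned, and 0 members passed 1.5-fold in polysomal RNA under any. Members 2-fold higher in polysomal than in total RNA numbered 11 to 15 in RBM35A+ and 11 to 17 in RBM35A− cells. Without floor or filter, 15 and 17 of 60 members were higher, against 8.80% and 8.46% of 8225 genes, the medians were 0.32 in RBM35A+ and 0.33 in RBM35A− cells, 2 members were lower in RBM35A+ cells, and the polysomal RBM35A median was 0.0010. With arrays centred on their medians, the median fraction difference of all genes was −0.09 in RBM35A+ and −0.07 in RBM35A− cells, against 0.10 in each as reported. All genes then split into 377 higher and 415 lower (508 and 285 as reported) in RBM35A+ and 384 and 401 (495 and 284 as reported) in RBM35A− cells. Members split into 12 and 2 in RBM35A+ and 13 and 2 in RBM35A− cells, with a median of 0.46 in RBM35A+ cells. Members lower in RBM35A+ cells were 3 with the mean of probe sets and 2 with all arrays normalized together. With that mean SMARCD2 was at −1.70 and −1.35 in RBM35A+ and RBM35A− cells, HDAC1 at −1.16 and −0.93 and RBBP4 at −2.10 and −2.53. The RBBP4 values are bounds. With a floor of 6, HDAC3 (0.85 and 0.75) and HDAC6 (0.68 and 0.29) were no longer 2-fold higher. With genes kept by their mean over the 4 arrays, an alternative chosen after seeing the data, the RBM35A− median was 0.73, and 14 and 16 members were higher. With a floor of 6, members lower in RBM35A− cells were 1 and the median was 0.42. With a floor of 4, the median polysomal minus total RBM35A difference was −0.0879. 1 alternative left out probe sets whose identifiers mark shared sequence or, as for KDM6B, fewer unique probes than standard. KDM6B then has no value, which left 0 members past 1.5-fold in the polysomal minus total RBM35A difference. The causes were not tested, beyond the genes and probe sets each alternative removes. No paired analysis was possible because each group has 1 array.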
